A study of Rattus norvegicus with 9 samples.

Results

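A group of 8 genes that code for brakes on, or targets of, CREB-driven transcription was followed in rat adrenal zona glomerulosa cells: Sik1, Crem, Ptgs2, Ppargc1a, Gem, Tiparp, Rcan1 and Homer1. Their members were all probe sets to which the platform annotation gave 1 of these 8 symbols and no other. There were 21 such probe sets among the 31042 on the array that were not controls, and 17 of them, from 7 genes, were bright enough to be tested. The 4 untested ones were all 3 of Ppargc1a and 1 of the 5 of Homer1, whose mean signals over the 9 arrays lay below the minimum of 87.1. Zona glomerulosa cells, the aldosterone-making outer layer of the adrenal cortex, were freshly dispersed with enzymes and mechanically, then kept for 2 h at 37 °C in a medium with bovine serum albumin. One tube of each of 3 independent preparations was left under basal conditions (control), 1 received angiotensin II (Ang II, 100 nM) and 1 received potassium (16 mM), so that each group had 3 arrays (Affymetrix Rat Genome 230 2.0). The labels give no strain, sex or age of the rats. The design sets each of these stimuli of aldosterone secretion against control and, in the same preparations, against each other.

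CREB is a transcription factor that binds the cAMP response element and is switched on by phosphorylation and by its coactivators of the CRTC family. Salt-inducible kinases, of which SIK1 is itself a product of CREB-driven transcription, phosphorylate CRTC proteins and hold them in the cytoplasm, so that Sik1 closes a negative feedback loop. Crem closes another one, since an internal promoter of the gene drives the short repressor ICER, which occupies the same element. In glomerulosa cells, Ang II acts through a receptor that releases stored calcium and activates protein kinase C, whereas raised potassium depolarises the membrane and opens voltage-gated calcium channels. Both therefore raise calcium, which feeds CREB kinases and the phosphatase calcineurin.

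The element itself was sought in the promoters of the genes, because it is the one sequence that CREB and the Crem repressors share. RefSeq promoter windows of assembly GRCr8, running from 250 bases before to 50 bases after a transcription start, were at hand for 7 of the 8 genes, in 9 windows, of which 3 belonged to Crem; Gem was not matched. The full element, TGACGTCA, searched on both strands, was present in 4 of the 9 windows, and in 1.8% of all 33469 windows of the table. Its core, TGACG, which is also part of every full element, was present in 6 of the 9 windows and in 21.2% of all. The sequences that held a full element in Crem, Ppargc1a and Rcan1 and the pair of cores in Sik1 are shown 5′ to 3′ on the strand of the gene, with the matching bases in capitals. In Sik1 the capitals read CGTCA, the core on the other strand.
Crem, chr17:58984715-58984774, plus strand: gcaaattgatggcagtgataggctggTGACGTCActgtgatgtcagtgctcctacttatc
Crem, chr17:58985429-58985488, plus strand: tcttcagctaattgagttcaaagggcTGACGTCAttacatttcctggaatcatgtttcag
Crem, chr17:58985503-58985539, plus strand: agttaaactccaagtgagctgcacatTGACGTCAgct
Ppargc1a, chr14:63634101-63634160, plus strand: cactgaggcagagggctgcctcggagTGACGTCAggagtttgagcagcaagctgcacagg
Rcan1, chr11:45118410-45118469, minus strand: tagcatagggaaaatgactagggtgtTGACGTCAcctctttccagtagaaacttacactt
Sik1, chr20:9958807-9958863, minus strand: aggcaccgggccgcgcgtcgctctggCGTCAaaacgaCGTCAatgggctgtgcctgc
Counted from the start of transcription, the first Crem element began at position -56 of its own window, and the other pair at positions -35 and 40 of a neighbouring window. The elements of Ppargc1a and Rcan1 began further out, at -181 and -207, and the Sik1 cores at -191 and -180. The windows of Ptgs2, Tiparp and Homer1 held neither the full element nor the core. Other motifs were searched in the same windows. GCGTG, the aryl hydrocarbon response motif (29.7% of all windows), was found for Sik1, Crem, Ptgs2, Tiparp, Rcan1 and Homer1. GGAAA, the NFAT motif (62.7%), was found for Crem, Ptgs2, Ppargc1a and Rcan1. TGANTCA, the AP-1 site (7.3%), was found for Rcan1 only, and AAAGGTCA, the Nr4a site (1.4%), for none. A match is only a string of letters in a window, and binding was not measured here.

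The arrays gave 1 linear signal per probe set in arbitrary units, with a trimmed mean of 500 on each array. Medians over the tested probe sets lay between 392.5 and 426.2. Differences are given on the log2(signal + 16) scale, from limma with the preparation as a block, and adjusted p-values (Benjamini-Hochberg) are over all 18625 tested probe sets. The 3 arrays of a group come from separate preparations, and their small number limits the precision. Glomerulosa markers were mostly bright in control cells, with mean signals of 11700 for Dab2 and 6163 for Vsnl1, but 105 for Kcnk9. No probe set was named for Cyp11b2 alone. Markers of zona fasciculata (Akr1b7, 28312; Cyp11b1, 3302), medulla (Th, 735), endothelium (Kdr, 7624), macrophages (Lyz2, 6732), capsule fibroblasts (Dcn, 5528) and red cells (Hbb, 17735) were present too. Some other markers on these lists were dim, such as Vwf of endothelium (43.3), Cd163 of macrophages (32.3) and Slc4a1 of red cells (114). No tested marker of zona fasciculata, medulla, endothelium, macrophage, capsule fibroblast, lymphocyte, red cell or adipocyte passed the test in any comparison, and 1 of 8 of smooth muscle did, Acta2, higher after Ang II (0.40 ± 0.10 SE, adjusted p = 0.049). The summed signal of these 8 was 6778 to 9390 in control cells and 7499 to 10166 after Ang II, and its part in the results was not tested. Of the 9 glomerulosa markers, Star was higher with both stimuli and Wnt4 lower after Ang II than in either other group. These are bulk samples, in which more cells of a type and more RNA per cell cannot be told apart.

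Of the 7 tested genes, 6 rose with both stimuli on at least 1 probe set, and no tested probe set was called lower than control. After Ang II, 11 of the 17 tested probe sets were higher and 0 lower, from 6 of 7 tested genes, with a median log2 difference of 0.56 against -0.03 over all tested probe sets. Of all tested probe sets 2.17% were called in this comparison, 1.64% higher and 0.526% lower. After potassium, 13 of the 17 were higher and 0 lower, from 6 genes, with a median of 1.12 against -0.02. The share called over the whole array was then 5.39%, with 2.8% higher and 2.59% lower. Set directly against potassium, Ang II left 7 probe sets lower (Sik1, Crem and Tiparp) and 1 higher (Homer1), with a median of -0.43 against -0.01 over all. Over the array 4.79% were called between the stimuli, 3.1% higher after Ang II and 1.7% lower. Both stimuli were compared with the same 3 control arrays, so their differences from control are not independent of each other. The members were chosen with earlier results of these data known, so these counts are no independent evidence.

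Among the fits that left out arrays, the Ang II counts were lowest without preparation 1. They fell from 11 to 6 against control and from 8 to 4 against potassium, while the potassium count only moved from 13 to 12. Calls over the whole array fell too, from 404 to 145, from 893 to 270 and from 1004 to 446 in the same order. Leaving out the intensity trend of the variance model left 2, 10 and 3 calls in the 3 comparisons, against 32, 256 and 155 over the whole array. The 2 left after Ang II were both of Homer1, 1370454_at and 1370997_at. The adjusted p of the other Ang II rises was then 0.15 for Sik1, 0.1 for Ptgs2, 0.18 for Gem, 0.24 for Tiparp, 0.066 to 0.24 for Crem and 0.25 for Homer1 1368318_at. Scaling each array to the median of all probe sets moved the median of all tested probe sets to 0.09 after Ang II and 0.10 after potassium. The array-wide calls then split into 425 higher and 30 lower after Ang II, against 306 and 98 as deposited, and into 731 and 180 after potassium, against 521 and 483. Scaled to the median of the tested probe sets, potassium gave 614 higher and 355 lower. Under these scalings 11 or 12 members were higher after Ang II and 13 after potassium, and none was lower.

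**Figure D1:**
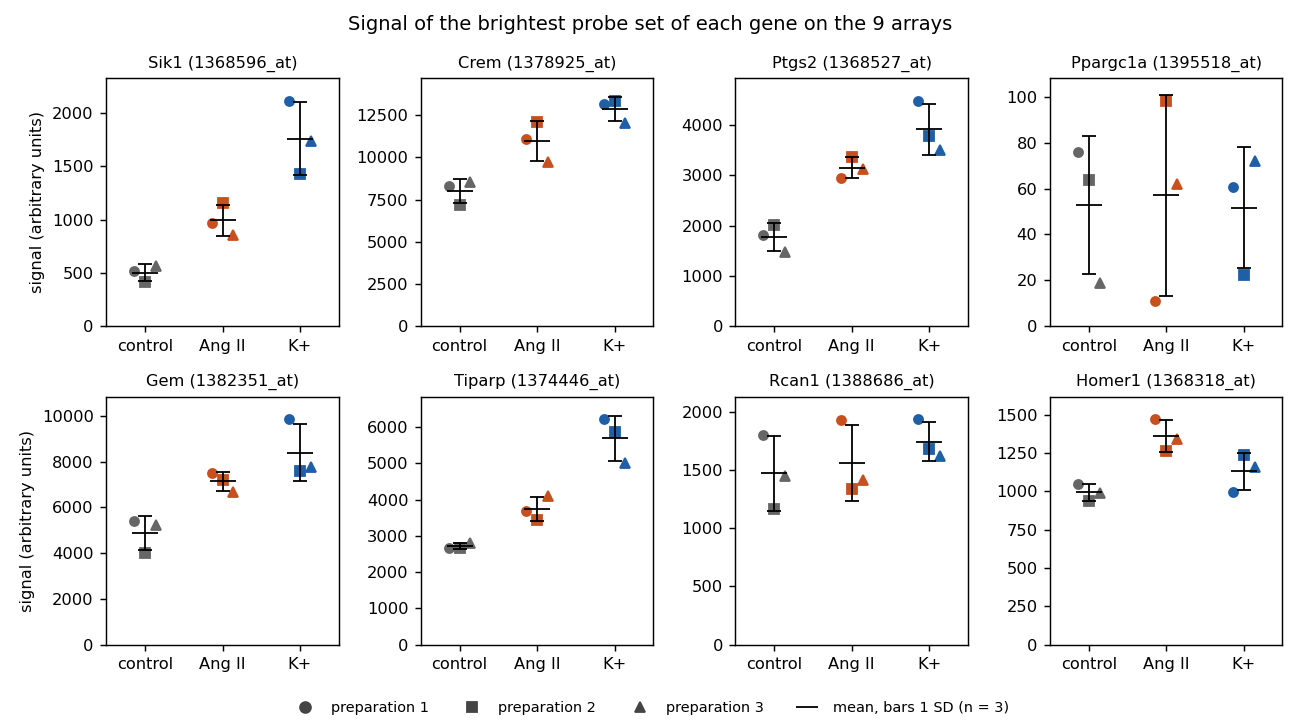
Signal in arbitrary units (linear axis from 0) of the brightest probe set of each of the 8 genes on the 9 arrays, by group, with 1 symbol per preparation and the mean ± 1 SD of 3 arrays. The groups of Sik1, Ptgs2, Gem and Tiparp do not overlap and rise from control through Ang II to potassium (K+), whereas the Ppargc1a signals, between 11 and 98.3, overlap fully.

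Sik1, the kinase that restrains CRTC, was the member with the largest rise after potassium. On its brighter probe set (1368596_at) the control signals were 520, 414 and 565 in preparations 1, 2 and 3. After Ang II they were 966, 1151 and 859, and after potassium 2114, 1428 and 1742. No group overlapped another, in the order control, Ang II, potassium. Ang II raised it 1.96-fold (log2 0.97 ± 0.14 SE, adjusted p = 0.0014) and potassium 3.43-fold (1.78 ± 0.14, adjusted p = 1.9e-06). The direct difference, Ang II minus potassium, was -0.81 ± 0.14 (adjusted p = 0.0034). It was smallest in preparation 2, at -0.31, and without preparation 1 the call ended (-0.66, adjusted p = 0.13).

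The second Sik1 probe set (1368597_at) was dim, with control signals of 97.8, 17.6 and 41.9, Ang II signals of 120, 93.4 and 116 and potassium signals of 243, 222 and 240. Its potassium values stood clear of the other 6 arrays, while the lowest Ang II value lay under the highest control value. The rise with potassium passed the test (4.14-fold, log2 2.05 ± 0.32, adjusted p = 0.0013), but its size depends on the value added before the logarithm, from 5.49-fold with 1 to 2.67-fold with 64. After Ang II its difference was 1.05 ± 0.32 (adjusted p = 0.13), or 0.63 with 64 added, and without the control array of preparation 1, the brightest of that group, it was 1.46 (adjusted p = 0.045). Between the stimuli it was lower after Ang II in 3 of 3 preparations (95% interval -1.70 to -0.31, adjusted p = 0.11), and without the control array of preparation 2 the same difference passed (adjusted p = 0.031).

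Crem, which codes for activating and repressing forms of a CREB relative, had 6 probe sets, and the annotation used here does not say which form each one reads. The brightest (1378925_at) gave 8292, 7187 and 8521 in control cells, 11105, 12099 and 9708 after Ang II and 13164, 13346 and 12048 after potassium. Both stimulated groups lay above all controls, but the highest Ang II array was above the lowest potassium array. Its rises were 0.45 ± 0.08 with Ang II (adjusted p = 0.0077) and 0.69 ± 0.08 with potassium (adjusted p = 0.00012). The difference between the stimuli, -0.23 (95% interval -0.41 to -0.05, adjusted p = 0.16), did not pass over the array, although it did without the control array of preparation 2 (adjusted p = 0.037). The Ang II call ended without preparation 1 (0.47, adjusted p = 0.12), without preparation 2 (0.30, adjusted p = 0.068) and without the Ang II array of preparation 2 (0.36, adjusted p = 0.074).

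A further 4 Crem probe sets were raised at least 2.34-fold by potassium and less by Ang II. On 1369737_at the signals were 2099, 1888 and 2079 in control cells, 3405, 2866 and 2862 after Ang II and 5508, 5618 and 4513 after potassium. The groups did not overlap, with rises of 0.58 ± 0.09 (adjusted p = 0.0013) and 1.35 ± 0.09 (adjusted p = 1.2e-07) and a difference between stimuli of -0.77 ± 0.09 (adjusted p = 6.1e-05). On 1396545_at the controls were 469, 493 and 519, the Ang II arrays 792, 966 and 786 and the potassium arrays 1119, 1285 and 1198. Here the fitted Ang II rise was the highest among the Crem probe sets, 0.76 ± 0.10 (adjusted p = 0.00066), against 1.25 ± 0.10 with potassium (adjusted p = 2.1e-06). The controls of 1393550_at were 884, 820 and 811, its Ang II arrays 1282, 1241 and 1223 and its potassium arrays 2394, 2016 and 1636. The rises there were 0.57 ± 0.10 (adjusted p = 0.0053) and 1.23 ± 0.10 (adjusted p = 1.8e-06).

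On the last of these 4, the stimuli stood furthest apart. This probe set, 1369738_s_at, carries the suffix that the maker gives to probe sets matching more than 1 transcript. Its Ang II signals of 1786, 1958 and 1036 overlapped control signals of 1304, 1751 and 1265, and potassium signals of 3530, 3686 and 2890 were far above both. Ang II minus control was 0.11 ± 0.12 (adjusted p = 0.74), positive in 2 of 3 preparations, and potassium minus control was 1.22 ± 0.12 (adjusted p = 8.2e-06). Its direct difference between stimuli was the largest of any member, -1.12 ± 0.12 (adjusted p = 3.2e-05). On the dimmest Crem probe set, 1387714_at, the controls were 296, 443 and 381, the Ang II arrays 267, 379 and 414 and the potassium arrays 518, 442 and 463. This probe set passed in no comparison, with differences from control of -0.08 ± 0.16 and 0.35 ± 0.16. The direct differences on 1393550_at and 1396545_at were -0.67 ± 0.10 (adjusted p = 0.00079) and -0.50 ± 0.10 (adjusted p = 0.0099).

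Several of these Crem calls ended when a preparation or an array was left out. Without preparation 1, the Ang II rises of 1369737_at (0.53, adjusted p = 0.071) and 1393550_at (0.59, adjusted p = 0.059) no longer passed, nor did the differences between stimuli of 1393550_at (-0.55, adjusted p = 0.053) and 1396545_at (-0.50, adjusted p = 0.13). The Ang II rise of 1393550_at also ended without the Ang II array of preparation 3 (0.50, adjusted p = 0.055). The difference between stimuli of 1396545_at ended without the Ang II array of preparation 1 (adjusted p = 0.065) or 3 (0.075), without the potassium array of preparation 1 (0.053) and without preparation 3 (0.082). The called potassium rises of Crem, and the direct differences of 1369737_at and 1369738_s_at, passed whichever array or preparation was left out.

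**Figure D2:**
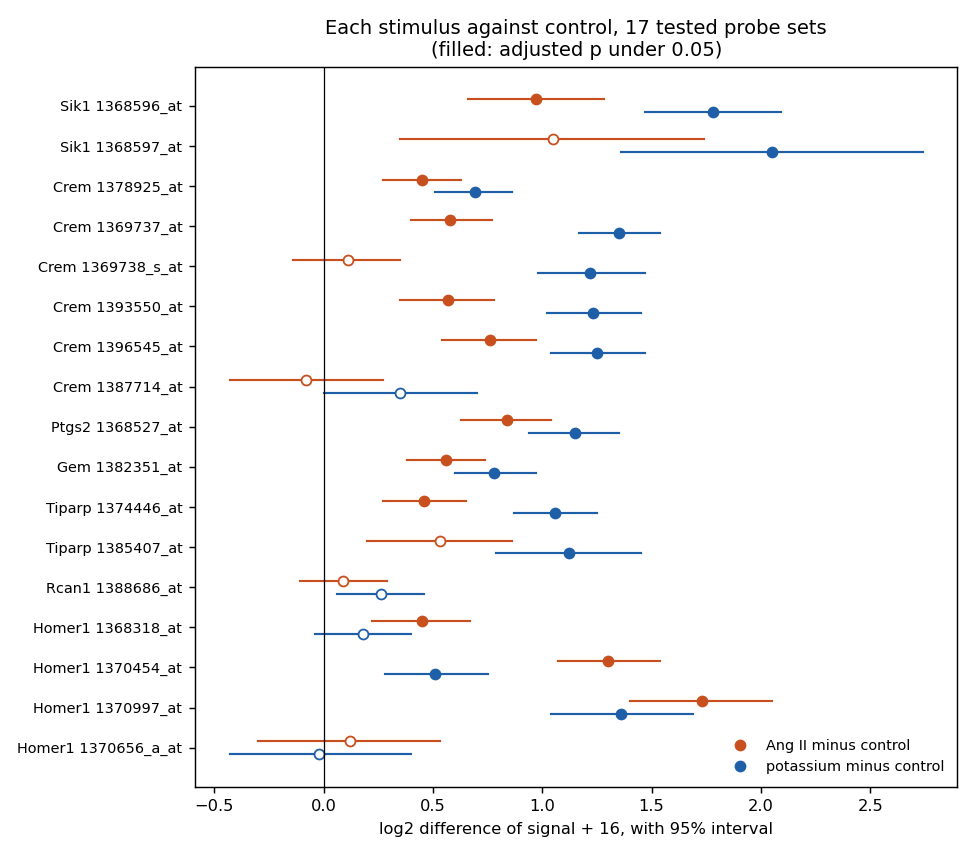
Log2 difference of signal + 16 from control, with 95% intervals from limma, for the 17 tested probe sets after Ang II and after potassium; filled points have an adjusted p under 0.05. The potassium point is further right for every tested probe set of Sik1, Crem, Ptgs2, Gem, Tiparp and Rcan1, and the Ang II point for all 4 of Homer1.

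Ptgs2 codes for cyclooxygenase-2, the inducible enzyme that commits arachidonic acid to prostaglandins. Its probe set (1368527_at) read 1815, 2019 and 1471 in control cells, 2953, 3375 and 3129 after Ang II and 4485, 3777 and 3502 after potassium. The groups were separate, with every Ang II array under every potassium array. Ang II raised Ptgs2 1.79-fold (log2 0.84 ± 0.10, adjusted p = 0.00015) and potassium 2.21-fold (1.15 ± 0.10, adjusted p = 2.6e-06). Between the stimuli the difference was -0.31 (95% interval -0.51 to -0.10), negative in 3 of 3 preparations, but it did not pass over all probe sets (adjusted p = 0.097). The constitutive enzyme, Ptgs1, was dim, at 72.4 ± 31.6 (SD, n = 3) in control cells, 108 ± 37.5 after Ang II and 108 ± 6.58 after potassium. Of 16 tested genes of prostaglandin synthesis, transport and reception other than Ptgs2, limma called 0 in any of the 3 comparisons, and 1, 1 and 2 had an unadjusted p under 0.05. Of all tested probe sets 2.17%, 5.39% and 4.79% were called in the same order, so 0 of 16 was near the background. Pla2g4a, the cytosolic phospholipase that releases arachidonic acid, went from 709 ± 63.4 to 890 ± 131 after Ang II (adjusted p = 0.13) and to 898 ± 155 after potassium (adjusted p = 0.073).

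Gem, a small GTPase that lowers the surface activity of voltage-gated calcium channels, was one of the brightest members. Its signals (1382351_at) were 5412, 4005 and 5204 in control cells, 7503, 7195 and 6683 after Ang II and 9840, 7575 and 7764 after potassium. Both stimulated groups lay above the controls, and the Ang II arrays lay just under the potassium ones. The rises were 1.47-fold with Ang II (log2 0.56 ± 0.08, adjusted p = 0.0017) and 1.72-fold with potassium (0.78 ± 0.08, adjusted p = 3.9e-05). Ang II minus potassium was -0.23 (95% interval -0.41 to -0.05, adjusted p = 0.18), only -0.07 in preparation 2. The related GTPases Rrad, at 208 ± 43.3 in control cells, and Rem1, at 122 ± 59.8, passed in no comparison. Among 14 tested genes on the list of RGK GTPases and voltage-gated calcium channels, limma called 0 with either stimulus against control, with 2 and 2 at an unadjusted p under 0.05. Shares called over the array were 2.17% and 5.39%, so 0 of 14 was near the background. Cacna1h, a T-type channel subunit, read 1375 ± 19.6 in control cells and 1031 ± 398 after potassium (adjusted p = 0.2).

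Tiparp, a mono-ADP-ribosyltransferase that restrains the aryl hydrocarbon receptor, had 2 probe sets. The brighter (1374446_at) gave 2659, 2663 and 2808 in control cells, 3692, 3433 and 4104 after Ang II and 6213, 5865 and 5001 after potassium. The 3 groups were well apart. Ang II raised it 1.38-fold (log2 0.46 ± 0.09, adjusted p = 0.011) and potassium 2.09-fold (1.06 ± 0.09, adjusted p = 2.6e-06), and the stimuli differed by -0.60 ± 0.09 (adjusted p = 0.00075). The Ang II rise no longer passed without preparation 1 (0.46, adjusted p = 0.13), without the control array of preparation 1 (0.42, adjusted p = 0.078) or 2 (0.47, adjusted p = 0.052), or without the Ang II array of preparation 3 (0.36, adjusted p = 0.11).

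The second probe set (1385407_at) went the same way with more spread. It read 1326, 1043 and 1631 in control cells, 1785, 1878 and 2070 after Ang II and 3111, 3361 and 2249 after potassium, again without overlap. The rise with potassium passed (1.12 ± 0.15, adjusted p = 0.00038), and that with Ang II did not (0.53 ± 0.15, adjusted p = 0.1), although it did without preparation 3 (0.63, adjusted p = 0.012), without the control array of preparation 3 (0.75, adjusted p = 0.019) and without the potassium array of preparation 2 (adjusted p = 0.045) or 3 (0.011). The difference between stimuli, -0.58 ± 0.15 (adjusted p = 0.043), was -0.12 in preparation 3 against -0.80 and -0.83 in the others, and the call ended in 14 of 25 alternative settings. Among these were no replicate block (adjusted p = 0.083) and leaving out preparation 1 (-0.48, adjusted p = 0.4) or 2 (-0.46, adjusted p = 0.14). The call also ended without the control array of preparation 1 (adjusted p = 0.059), the Ang II array of preparation 1 (0.23), 2 (0.13) or 3 (0.081), or the potassium array of preparation 1 (0.24) or 2 (0.27).

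Of 17 tested genes of the aryl hydrocarbon receptor pathway and the PARP family other than Tiparp, 1 was called. It was called after potassium and between the stimuli, where 5.39% and 4.79% of all tested probe sets were called. The count on this list was thus near the background. Cyp1b1, a cytochrome P450 that is a target of that receptor, was higher after potassium (14665 ± 923 against 10449 ± 2391 in control cells; log2 0.51 ± 0.09, adjusted p = 0.0025). After Ang II it read 8656 ± 2067 (-0.27 ± 0.09 from control, adjusted p = 0.15) and was lower than after potassium (-0.78 ± 0.09, adjusted p = 7e-05). Without the replicate block the difference from control after potassium did not pass (adjusted p = 0.13). Under Ang II against control limma called 0 of the 17, with 1 at an unadjusted p under 0.05.

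Rcan1, the inhibitor of calcineurin, passed in no comparison. Its single-symbol probe set (1388686_at) gave 1801, 1161 and 1447 in control cells, 1931, 1336 and 1412 after Ang II and 1932, 1676 and 1614 after potassium. The groups overlapped throughout, and preparation 1 was the highest in each. Ang II minus control was 0.09 (95% interval -0.11 to 0.29, adjusted p = 0.73). Potassium minus control was 0.26 (95% interval 0.06 to 0.46, adjusted p = 0.14), positive in 3 of 3 preparations. Of the windows searched, full elements were found for Crem, which was called, and for Rcan1, which was not; Sik1, called, had cores only, and Ptgs2, Tiparp and Homer1, called, had neither. No test linked the letters to the response. Of 19 other tested genes of calcineurin and NFAT signalling, limma called 0 in each comparison, and 0, 2 and 2 had an unadjusted p under 0.05. With 2.17%, 5.39% and 4.79% called over the array, 0 of 19 was near the background. Examples are Ppp3cb, a catalytic subunit of calcineurin, at 1343 ± 105 in control cells and 1483 ± 128 after Ang II, and Rcan2, at 632 ± 24.0, 620 ± 40.4 and 673 ± 40.2 in control, Ang II and potassium cells.

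**Figure D3:**
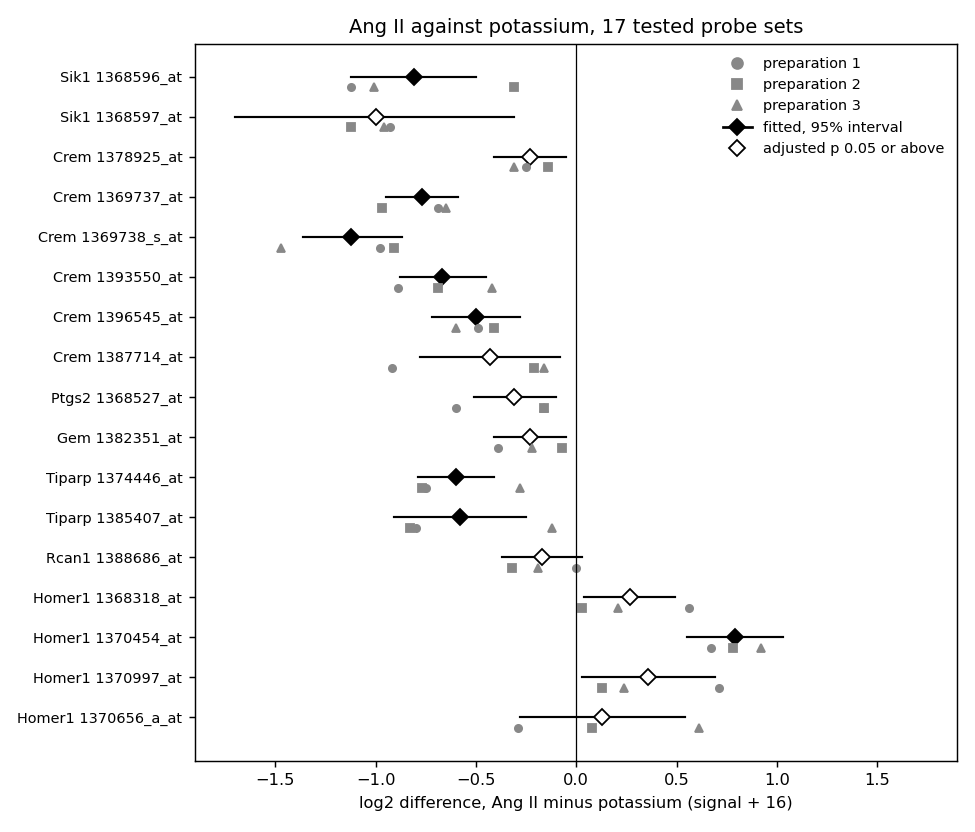
Log2 difference of signal + 16, Ang II minus potassium, for the 17 tested probe sets, with the fitted value and 95% interval (filled where the adjusted p is under 0.05) and the 3 preparations as grey symbols beneath. Of the filled points, 7 of Sik1, Crem and Tiparp lie left of 0 and 1, Homer1 1370454_at, lies right of it.

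Homer1 is a scaffold that ties metabotropic receptors, inositol trisphosphate receptors and calcium entry channels together. Its 4 tested probe sets had higher fitted values after Ang II than after potassium, the opposite order to the other tested members. Of these differences only that of 1370454_at passed. The gene also makes short, activity-induced forms that lack the coiled coil and uncouple that scaffold, and the annotation used here does not say which forms its 5 probe sets read. On 1370454_at the signals were 355, 371 and 355 in control cells, 872, 913 and 959 after Ang II and 541, 526 and 498 after potassium. All 3 groups were separate, with Ang II highest. Ang II raised it 2.47-fold (log2 1.30 ± 0.11, adjusted p = 7.8e-06) and potassium 1.43-fold (0.51 ± 0.11, adjusted p = 0.013). Ang II minus potassium was 0.79 ± 0.11 (adjusted p = 0.00049), between 0.67 and 0.92 in the 3 preparations, and it passed whichever array or preparation was left out. The potassium rise ended without preparation 1 (0.48, adjusted p = 0.15), 2 (0.53, adjusted p = 0.059) or 3 (0.54, adjusted p = 0.061). It also ended without the control array of preparation 1 (0.51, adjusted p = 0.056) or 3 (0.50, adjusted p = 0.053) and without the potassium array of preparation 1 (0.47, adjusted p = 0.085) or 2 (0.52, adjusted p = 0.051).

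A further Homer1 probe set, 1370997_at, had the largest Ang II rise of all members and the 11th largest of the 18625 tested. It read 265, 165 and 267 in control cells, 874, 690 and 811 after Ang II and 526, 630 and 685 after potassium. The lowest Ang II array stood just above the highest potassium array. The rises were 3.31-fold with Ang II (log2 1.73 ± 0.15, adjusted p = 1e-05) and 2.58-fold with potassium (1.36 ± 0.15, adjusted p = 5.5e-05), and the difference between them, 0.36 (95% interval 0.03 to 0.69), did not pass (adjusted p = 0.25).

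The other Homer1 probe sets moved less. The brightest, 1368318_at, gave 1050, 937 and 992 in control cells, 1470, 1264 and 1345 after Ang II and 995, 1236 and 1158 after potassium. Its Ang II arrays lay above the other 6, and potassium overlapped control. It rose 1.36-fold with Ang II (0.45 ± 0.10, adjusted p = 0.039), which is near the threshold, and the call ended when any 1 of the 3 preparations (adjusted p = 0.17, 0.1 and 0.17 without preparations 1, 2 and 3) or any control or Ang II array was left out (adjusted p from 0.07 to 0.22), and without the replicate block (adjusted p = 0.094). Potassium minus control was 0.18 ± 0.10 there (adjusted p = 0.39), and the stimuli differed by 0.27 (95% interval 0.04 to 0.49, adjusted p = 0.21). On 1370656_a_at the controls were 189, 290 and 197, the Ang II arrays 186, 277 and 272 and the potassium arrays 231, 262 and 173, fully overlapping. The untested 1368319_a_at read 8.69 to 62.2 in control cells, 27.3 to 62.5 after Ang II and 63.3 to 82.8 after potassium. On this dim probe set every potassium array lay above every Ang II array, unlike the tested ones. Of 18 tested partners and paralogs of Homer1, limma called 0 in each comparison, with 1 at an unadjusted p under 0.05 in each. As 2.17%, 5.39% and 4.79% were called over the array, 0 of 18 was near the background. Homer3 read 747 ± 172, 692 ± 40.7 and 598 ± 50.1 in control, Ang II and potassium cells, and the inositol trisphosphate receptor gene Itpr1 went from 728 ± 91.2 in control cells to 817 ± 92.1 after Ang II (adjusted p = 0.52).

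**Figure D4:**
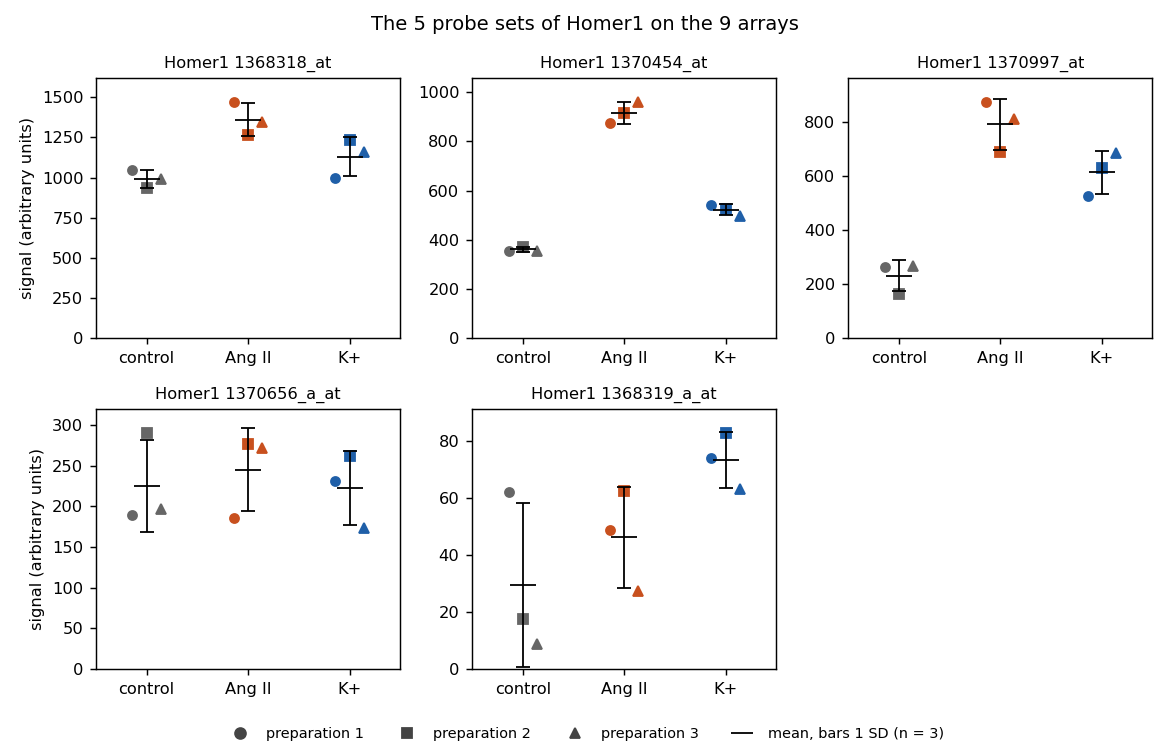
Signal in arbitrary units (linear axis from 0) of the 5 probe sets of Homer1 on the 9 arrays, by group, with 1 symbol per preparation and the mean ± 1 SD of 3 arrays. On 1370454_at the Ang II arrays lie at 872 to 959 and the potassium arrays at 498 to 541, whereas on 1370656_a_at the 3 groups overlap.

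Ppargc1a, the coactivator PGC-1 alpha of mitochondrial genes and a CREB target in liver and muscle, was too dim to be tested. Its 3 probe sets had means over the 9 arrays of 53.9, 27.7 and 19.1, and single signals ran from 2.01 to 98.3. On the brightest (1395518_at) the controls were 76.2, 63.7 and 18.9, the Ang II arrays 11, 98.3 and 62.0 and the potassium arrays 60.8, 22.1 and 72.2, in no order. When the minimum on signal was dropped, none of the 3 passed in any comparison; the widest difference was -0.79 ± 0.50 after Ang II (1370089_at, adjusted p = 0.61). A change of Ppargc1a was not detectable at this brightness, and its window is among those with a full element. Of all tested probe sets 2.17% were called after Ang II and 5.39% after potassium. Among 19 tested genes of the PGC-1 family and mitochondrial biogenesis, the called counts were near these shares. There limma called 0 after Ang II (5 at an unadjusted p under 0.05) and 1 after potassium. That gene, Pdk4, the kinase that shuts off pyruvate dehydrogenase, rose from 507 ± 18.9 to 723 ± 79.7 (0.49 ± 0.12, adjusted p = 0.03). The Pdk4 call ended without preparation 1 (0.41, adjusted p = 0.27), 2 (0.53, adjusted p = 0.068) or 3 (0.54, adjusted p = 0.061) and without the replicate block (adjusted p = 0.066). It ended too without the control array of preparation 1 (adjusted p = 0.13) or 3 (0.11), or the potassium array of preparation 1 (0.17) or 2 (0.12).

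Upstream of these genes stand CREB itself, its coactivators and the kinases that act on them. Of 31 tested genes for CREB, its relatives, its coactivators and their kinases, limma called 0 after Ang II (5 at an unadjusted p under 0.05), 1 after potassium and 2 between the stimuli (5 at an unadjusted p under 0.05 in both). Array-wide shares called were 2.17%, 5.39% and 4.79%, so that the called counts on this list were near the background. For the unadjusted counts no array-wide share was computed. Their median difference was 0.03 after Ang II and 0.02 after potassium, against -0.03 and -0.02 over all tested probe sets. Creb1 read 761 ± 74.7 in control cells, 750 ± 93.8 after Ang II and 850 ± 77.8 after potassium. Sik2, a paralog of Sik1, read 495 ± 54.8, 495 ± 51.5 and 507 ± 19.1 in the same order, and passed in no comparison. Sik3, the other paralog, was higher after Ang II (2779 ± 48.3) than after potassium (2139 ± 258; log2 0.38 ± 0.08, adjusted p = 0.011), the opposite direction to Sik1. Neither of these Sik3 groups was called against control (2406 ± 98.6). The widest fitted difference was that of Camkk2, a kinase of the CaM kinase cascade, which was dim and did not pass (141 ± 64.6 in control cells, 63.6 ± 44.2 after Ang II; -1.10 ± 0.33, adjusted p = 0.11). The coactivator gene Crtc3 went from 733 ± 54.3 to 537 ± 13.9 after Ang II without passing (-0.43 ± 0.12, adjusted p = 0.077). Prkar2b, a regulatory subunit of protein kinase A, rose after potassium (0.27 ± 0.07, adjusted p = 0.037) and was lower after Ang II than after potassium (-0.35 ± 0.07, adjusted p = 0.0087).

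These last calls were fragile. Without the replicate block none of them passed (adjusted p = 0.055 for Sik3, 0.46 and 0.36 for Prkar2b). The Sik3 difference also ended without preparation 1 (0.32, adjusted p = 0.22) or 3 (0.36, adjusted p = 0.08), or an Ang II or potassium array of these preparations (adjusted p from 0.052 to 0.1). The Prkar2b rise with potassium ended when any 1 of the 3 preparations was left out (adjusted p = 0.2, 0.23 and 0.08 for Prkar2b without preparations 1, 2 and 3), or any control or potassium array or the Ang II array of preparation 1 (adjusted p from 0.062 to 0.2). Its difference between stimuli ended without preparation 1 (-0.37, adjusted p = 0.12) or 2 (-0.32, adjusted p = 0.063), the Ang II array of preparation 1 (adjusted p = 0.054) or the potassium array of preparation 2 (0.065).

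Other known CREB targets, taken as a list of 44 genes of which 39 were tested, rose in number with both stimuli. This list was chosen with earlier results of these data known, so its counts are no independent evidence. After Ang II 17 of 39 were higher and 0 lower (median 0.29), and after potassium 16 were higher and 1, Egr1, lower (median 0.24). Over the array 1.64% were higher and 0.526% lower after Ang II (median -0.03), and 2.8% and 2.59% after potassium (median -0.02). Without preparation 1 the Ang II count fell to 8, while the array-wide calls fell from 404 to 145. Without the intensity trend the counts were 1 after Ang II and 10 after potassium, with 32 and 256 called over the array. The insulin receptor substrate gene Irs2 went from 890 ± 76.4 to 1717 ± 88.9 after Ang II (0.94 ± 0.08, adjusted p = 9.1e-06) and to 3301 ± 157 after potassium (1.87 ± 0.08, adjusted p = 3.4e-09), and the stimuli differed (-0.94 ± 0.08, adjusted p = 6.6e-06). Nr4a1, an orphan nuclear receptor that acts on the aldosterone synthase promoter, rose from 6499 ± 1836 to 11114 ± 1238 (0.80 ± 0.11, adjusted p = 0.00051) and to 11240 ± 718 (0.82 ± 0.11, adjusted p = 0.0002). Between the stimuli 10 of the 39 were lower after Ang II and 4 higher, with a median of -0.07. Array-wide shares were 1.7% and 3.1%, with a median of -0.01. Rgs2, which shortens signalling by Gq-coupled receptors, stood at 5873 ± 674 after Ang II and 13725 ± 695 after potassium (-1.23 ± 0.07, adjusted p = 1.2e-07).

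**Figure D5:**
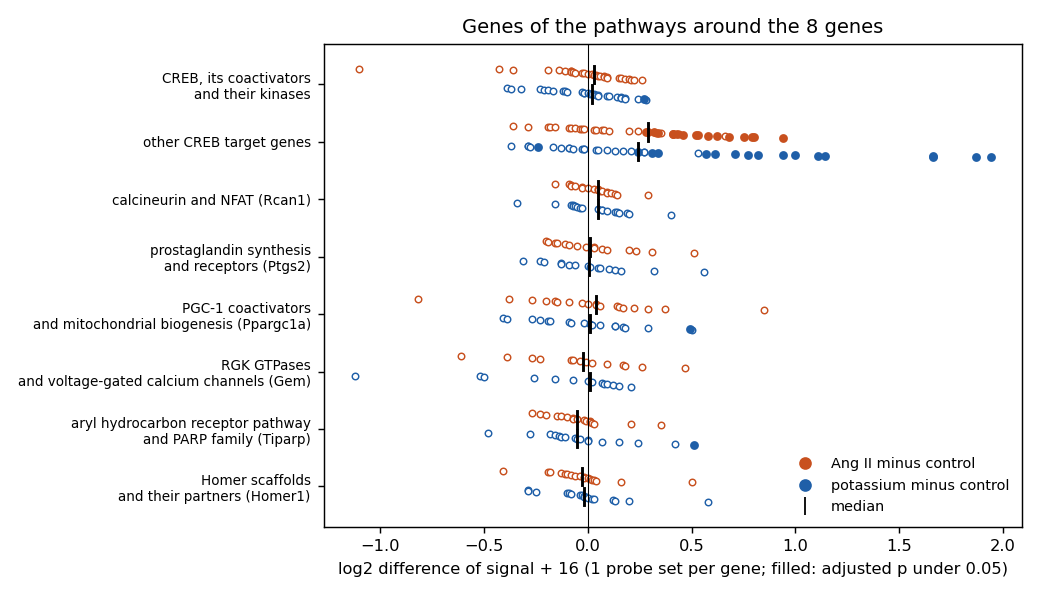
Log2 difference of signal + 16 from control for the tested genes of 8 lists around the 8 genes, 1 probe set per gene, after Ang II and after potassium; filled points have an adjusted p under 0.05 and black bars are list medians. Only the list of other CREB target genes has more than 1 filled point in either comparison.

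Correlations among the members were taken over the 9 arrays once the mean of each preparation was removed. The brightest probe sets of Sik1 and Crem correlated at r = 0.97, Sik1 and Gem at 0.97, Sik1 and Ptgs2 at 0.93 and Sik1 and Tiparp at 0.93. The probe sets of 1 gene could differ, since the brightest and the dimmest of Crem, 1378925_at and 1387714_at, correlated at 0.37, and Crem 1369738_s_at correlated with Ptgs2 at 0.70. Sik1 correlated with the Homer1 probe sets 1370997_at, 1370454_at, 1368318_at and 1370656_a_at at 0.74, 0.42, 0.32 and -0.05. These values describe 9 arrays that share 3 preparations and 3 groups. Measured in the same way, the other genes most like Sik1 were Creb3l1 (r = 0.996), a membrane-bound relative of CREB, and Klf4 (0.990). For Crem they were Nfil3 (0.992) and Gem (0.987), for Ptgs2 Tent5a (0.989) and Slc2a3 (0.986), and for Gem Epha4 (0.995) and Scarb1 (0.989). Those most like Tiparp were Crem, on 1393550_at (0.994), and Igfbp3 (0.988), and those most like Rcan1 were Ccnl2 (0.988) and Stom (0.985). The brightest Homer1 probe set was followed by Eif4a3 (0.983) and Hacd1 (0.974). Tent5a had the widest changes of these, from 1148 in control cells to 3005 after Ang II and 4440 after potassium. These genes were picked as the highest correlations among all tested probe sets, and a correlation takes no account of size. Slc2a3 changed by only 0.16 after Ang II and 0.22 after potassium, against 0.84 and 1.15 for Ptgs2.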

How the data were processed

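Each of 9 arrays measured 1 tube of cells. As deposited, a probe set has a single intensity on a linear scale for every array. GCOS, the array maker's software, is named without a version in the submitters' processing notes; how background was removed and probes were summarised is not given in the sources used here. Probe sets were named through the platform annotation and RefSeq genes of GRCr8 (names only). One further probe set that lists Homer1 beside another gene was left out by the rule.

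From these, log2(signal + 16) was computed without further scaling. Probe sets with a mean signal above the 40th percentile were tested (18625). With R 4.3.3, limma 3.58.1 and its eBayes with an intensity trend fitted the 3 groups with the preparation as a fixed block, with 4 residual and 10.7 prior degrees of freedom and Benjamini-Hochberg adjustment at 0.05. It was tested on simulated data. The pairing comes from the study's design, in which each preparation supplied 1 tube per group. Deviations from group means correlated at 0.11 to 0.27 within a preparation and at -0.21 to 0.04 between preparations.

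Group means are ± SD over 3 arrays and log2 differences ± SE. The genes named were the 8 members, genes drawn from the 3 of each list that ranked first by p in a comparison, their relatives, and the 2 genes most like each tested member. The members and lists were chosen with earlier results of these data known, and a list's counts are no independent evidence. The share of all tested probe sets at an unadjusted p under 0.05 was not counted, so list counts at that threshold have no background beside them. Alternatives varied the block, pseudocount, filter, scaling, variance model and arrays left out. One result for the list around Gem is not reported here.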

Additional observations from a re-analysis of the deposited data

How the results depend on the processing

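The number of member probe sets called was recomputed under 25 alternatives. After Ang II it was 11 and fell to 2 without the intensity trend, and leaving out arrays or preparations gave 6 to 12. After potassium it was 13, with 10 without the trend and 12 to 13 when arrays were left out. Between the stimuli it was 8, with 3 without the trend and 4 to 10 when arrays were left out. Without the replicate block the paired design was ignored and the counts were 10, 13 and 7, with 193, 499 and 442 called over the array. No member was called lower than control under any of the 25. Filtering on the mean log2 signal, added after seeing the data, left the counts at 11, 13 and 8.

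Signs turned only for differences that were not called. For Crem 1387714_at after Ang II the value was 0.037 when scaled to the median of all probe sets and -0.198 to 0.055 with arrays left out. Crem 1369738_s_at after Ang II ranged from -0.063 to 0.304, and Rcan1 from -0.006 to 0.15. Homer1 1370656_a_at after potassium was 0.022, 0.10 and 0.031 when scaled to the median of tested probe sets, to that of all probe sets or by quantiles. With arrays left out it ranged from -0.191 to 0.143, from -0.083 to 0.257 after Ang II and from -0.107 to 0.342 between the stimuli. The causes were not tested. Dim probe sets, those of Ppargc1a above all, are limited by their signal over background.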

Other observations

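Among the other CREB targets a few were higher after Ang II than after potassium, like Homer1 1370454_at and unlike Sik1 and Crem. They were named after their values were seen. Egr1, a zinc-finger factor induced through MAP kinase as well as CREB, read 19914 ± 982 after Ang II and 12699 ± 669 after potassium (log2 0.65 ± 0.06, adjusted p = 8e-06), with 15031 ± 1586 in control cells. Its difference from control was 0.41 ± 0.06 after Ang II (adjusted p = 0.0011) and -0.24 ± 0.06 after potassium (adjusted p = 0.027), and the latter call ended in 15 of 25 alternatives, among them no replicate block (adjusted p = 0.17) and leaving out preparation 1 (-0.21, adjusted p = 0.26). Its relative Egr2 read 1164 ± 161 and 654 ± 80.4 (0.81 ± 0.10, adjusted p = 0.00013). Maff, a small Maf factor, read 2449 ± 322 and 1826 ± 120 (0.41 ± 0.08, adjusted p = 0.0045), and Inhba, the activin subunit, 2133 ± 632 and 1532 ± 448 (0.47 ± 0.09, adjusted p = 0.0066). The differences of Egr1 and Egr2 passed in all 25 alternatives. That of Maff ended without the replicate block (adjusted p = 0.097), without the intensity trend (0.11) and without preparation 1 (0.46, adjusted p = 0.055) or 2 (0.36, adjusted p = 0.057). That of Inhba ended without the block (adjusted p = 0.49), with a random block (0.23), without the trend (0.13), without preparation 1 (0.061) or 2 (0.056), and without the potassium array of preparation 1 (0.058) or the Ang II array of preparation 3 (0.053). On the other side, Nr4a2 read 3095 ± 451 after Ang II and 6869 ± 921 after potassium (-1.15 ± 0.14, adjusted p = 0.00013), and the neurotrophin gene Bdnf 562 ± 57.8 and 1071 ± 107 (-0.91 ± 0.13, adjusted p = 0.0005).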
